A study of Homo sapiens with 52 samples.

Results

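The genes described here are 9 keratins and vimentin (KRT5, KRT7, KRT8, KRT14, KRT17, KRT18, KRT19, KRT80, KRT81 and VIM). They were chosen by gene name, with earlier results of these data known, and all 10 were found among the 78894 genes of the deposited values. They were followed through 52 bulk mRNA libraries of 3 claudin-low breast cancer cell lines, SUM159PT, MDA-MB-231 and HS578T. Each line was given either siRNA (siNT, siNRP1#3 or siNRP1#5, at 20 nM, with RNA taken after 72 hours) or lentiviral shRNA (shNT, shNRP1#3 or shNRP1#5, with 3 days of puromycin and RNA taken 48 hours after seeding). NT is the non-targeting control, and #3 and #5 are NRP1-targeting sequences, of which #5 is the same in siRNA and shRNA while #3 differs between them. #3 was designed against mRNA of the transmembrane form of neuropilin-1, a cell surface co-receptor, and #5 against mRNA of both the transmembrane and the soluble form. Each of the 18 groups had 3 samples, apart from HS578T shNRP1#3 and SUM159PT siNRP1#5, which had 2 each. The shRNA replicates were consecutive passages, so p-values measure the spread between passages there. Delivery, selection and harvest time differed together between siRNA and shRNA.

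Keratins are the intermediate filament proteins of epithelial cells and assemble as pairs of a type I and a type II chain. KRT8 (type II) with KRT18 (type I) is the pair of simple epithelium, with KRT7 and KRT19 as further luminal keratins of the breast. KRT5 with KRT14 is the pair of basal and myoepithelial cells, KRT17 is a basal keratin induced by stress, KRT80 is an epithelial type II keratin, and KRT81 is a type II hair keratin. Vimentin forms the intermediate filaments of mesenchymal cells, and many carcinoma cells that lose epithelial features hold both vimentin and keratins.

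NRP1 was the targeted gene and served as a check of the labels. By counts, it fell in 11 of 12 comparisons with the NT control, by 0.70 to 4.88 on the log2 scale. The SUM159PT shNRP1#3 call was lost in 5 refits that left out 1 of its samples, those without shNRP1#3 replicate 2 or 3 or any 1 shNT sample (adjusted p between 0.0507 and 0.15), and the HS578T siNRP1#3 call without siNRP1#3 replicate 1 (0.0683). In HS578T shNRP1#3 it was at 46.5 and 46.2 CPM against 127.8, 122 and 161.7 CPM in shNT, a log2 fold change of -1.59 that did not pass (adjusted p = 0.069). CPM are counts scaled to a common library size after TMM normalisation, and depth ran from 25310443 to 72003442 counts per sample. Of the epithelial genes that claudin-low cells lack, MDA-MB-231 held CLDN4 at a median of 149 TPM, CLDN7 at 35.4 TPM and EPCAM at 22.7 TPM, whereas CDH1 did not exceed 3.33 TPM in any line. TPM also scale for transcript length. By TPM, NRP1 of MDA-MB-231 was about level with siNRP1#3, at 28.5 ± 3.36 against 28.8 ± 3.03 TPM in siNT (SD). The fall there, from 74.3 to 45.0 CPM, was thus one of counts. DCN, a fibroblast matrix gene, had a median of 80.6 TPM in HS578T.

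The siRNA libraries of HS578T carried transcripts that mark MDA-MB-231. Over 33 marker genes, which have a mean of at most 0.5 CPM in the HS578T NT controls and at least 20 CPM in every MDA-MB-231 NT control, the median level was 0.565, 0.883 and 2.07% of the MDA-MB-231 level in siNT. It was 2.23, 2.92 and 6.67% in siNRP1#3 and 23.1, 17.9 and 12.9% in siNRP1#5, and at most 0.511% in the shRNA libraries. In HS578T siNRP1#5 replicate 2 the markers of SUM159PT also stood at 8.35%, and in MDA-MB-231 shNRP1#3 replicate 3 those of SUM159PT and HS578T stood at 2.37% and 2.39%. This marker rule was set after the data had been seen, since the first rule, with at most 0.5 CPM in every NT control, left 3 genes. The siNRP1#3 and siNRP1#5 libraries of HS578T do not overlap in this share, while the marker rule itself holds the share low in the NT controls. Whether these markers came from cells of another line or were induced in HS578T was not tested, and tests in HS578T siRNA samples are given with and without the RNA that the shares of both other lines would bring. That subtraction also ended the call of NRP1 itself in HS578T siNRP1#3 (log2 -1.29, adjusted p = 0.519) and shNRP1#5 (log2 -2.08, adjusted p = 0.328), so a call lost under it does not show that the gene did not change. The subtraction takes the other lines at their NT levels. For a gene that the same siRNA raised there, RNA of the treated cells would bring more than is taken off. A call kept under the subtraction has that limit. In bulk samples, fewer cells of a type and less RNA per cell cannot be told apart.

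Promoter sequence, shown because VIM is the most abundant member and KRT5 the least, was held for 3 of the 10 members in the RefSeq table (GRCh38.p14). The 250 bases before the VIM start lie at chr10:17227991-17228240 on the plus strand, and those of KRT5 at chr12:52520395-52520644 on the minus strand. Capitals mark GGGCGG, the core of the GC box, in VIM, and CAGGTG, an E-box of the kind that SNAI and ZEB proteins bind, in KRT5.
VIM: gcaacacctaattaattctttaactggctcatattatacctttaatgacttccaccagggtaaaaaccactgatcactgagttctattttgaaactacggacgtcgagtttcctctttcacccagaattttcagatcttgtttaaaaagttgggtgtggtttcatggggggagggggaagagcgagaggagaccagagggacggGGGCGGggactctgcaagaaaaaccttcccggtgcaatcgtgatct
KRT5: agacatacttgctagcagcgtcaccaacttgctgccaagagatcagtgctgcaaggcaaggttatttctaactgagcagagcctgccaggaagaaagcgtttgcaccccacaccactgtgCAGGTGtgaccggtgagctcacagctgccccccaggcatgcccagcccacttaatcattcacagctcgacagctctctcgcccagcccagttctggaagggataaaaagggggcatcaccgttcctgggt
GGGCGG lay at bases 46 to 41 before the VIM start and was present, on either strand, in 42.6% of 35116 promoters of that length. CAGGTG lay at bases 130 to 125 before the KRT5 start and was present in 17.5%. The annotated KRT5 gene begins further upstream than this RefSeq start, at base 52520530, so that match lies inside the gene as given below. TATAAA (10.7% of promoters) and TGANTCA, the AP-1 site (6.57%), were found in neither. A match is a match of letters only. The RefSeq window of KRT8 held none of the 4 motifs and is not printed, because it lies before the start of a longer KRT8 transcript, which is 21393 bases upstream of the start of the transcript that led in SUM159PT and MDA-MB-231.

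The 3 lines differed by which keratins they held, while VIM was high in all. In the NT controls VIM averaged 3869 ± 1421 TPM in SUM159PT, 2522 ± 243 TPM in MDA-MB-231 and 5105 ± 644 TPM in HS578T (SD, n = 6 each). Ranked by TPM among all genes, VIM lay between place 9 and place 125 in every sample. KRT8 averaged 804 TPM in SUM159PT and 1205 TPM in MDA-MB-231 but 99.2 TPM in HS578T, and KRT7 835, 260 and 19.1 TPM. KRT19 was a keratin of MDA-MB-231, at 319 ± 46.0 TPM against 0.555 TPM in SUM159PT and 1.18 TPM in HS578T. KRT14 was a keratin of HS578T, at 388 ± 303 TPM against 0.958 and 0.458 TPM in the other two. KRT17 was highest in SUM159PT (46.4 TPM, against 1.78 TPM in MDA-MB-231 and 0.338 TPM in HS578T), and KRT80 in MDA-MB-231 (125 TPM, against 58.1 and 2.21 TPM). KRT5, the usual partner of KRT14, did not exceed 5.87 CPM in any sample and was listed at 0 in every MDA-MB-231 sample but 2. HS578T held KRT14 with KRT5 near 0.

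**Figure D1:**
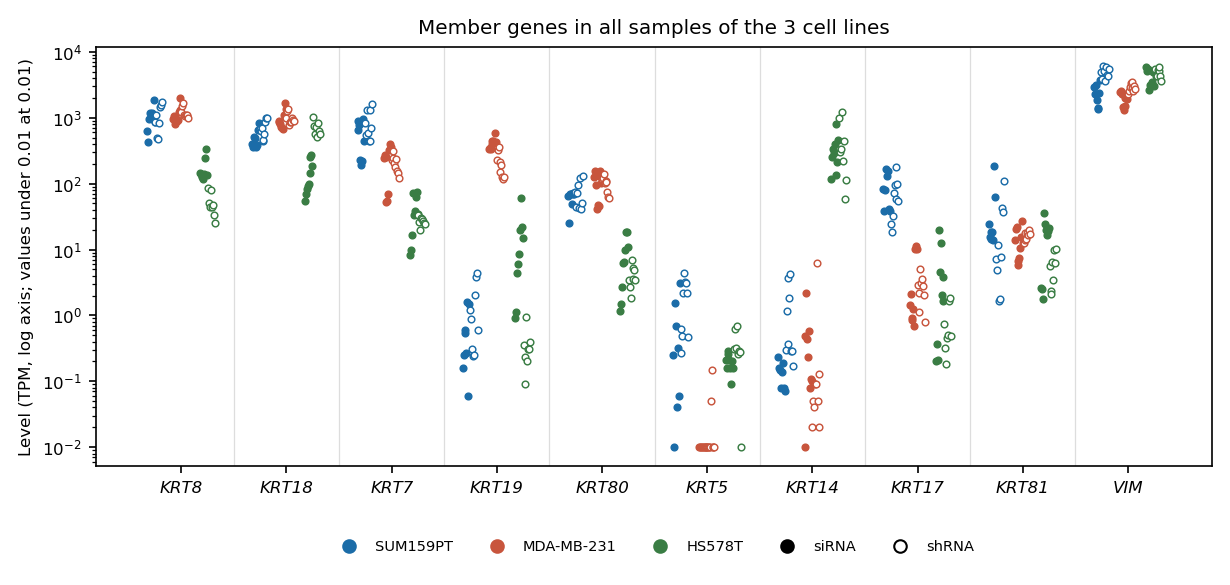
Level of each member in all 52 samples, in TPM on a log axis, by cell line (colour) with siRNA samples filled and shRNA samples open. Values under 0.01 TPM are drawn at 0.01. VIM is high in all 3 lines, KRT19 stands out in MDA-MB-231 and KRT14 in HS578T, and KRT18 of HS578T splits into lower siRNA and higher shRNA points.

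Between lines, the mean of both NT controls was compared in 1 edgeR quasi-likelihood model over all 52 samples, with Benjamini-Hochberg adjustment over 23416 genes. SUM159PT and MDA-MB-231 differed in 7 of 10 members, where 59.4% of all genes passed, with KRT5, KRT7, KRT17 and VIM higher and KRT18, KRT19 and KRT80 lower in SUM159PT. HS578T differed from MDA-MB-231 in 10 of 10 (70.2% of all genes), with KRT5, KRT14 and VIM higher and the other 7 lower. HS578T differed from SUM159PT in 8 of 10 (63.5% of all genes), with KRT14 and VIM higher and KRT7, KRT8, KRT17, KRT18, KRT80 and KRT81 lower. For KRT18 the direction depended on the control, since HS578T stood at 94.4 CPM in siNT, below SUM159PT (459.5) and MDA-MB-231 (700.3), but at 1021 CPM in shNT, above both (654.5 and 908.5). The other calls between lines had the same direction in siNT and shNT means. VIM was 3.45-fold higher in HS578T than in MDA-MB-231 (log2 1.79, SE 0.14, adjusted p = 1.24e-14) and 1.81-fold higher than in SUM159PT (log2 0.86, adjusted p = 9.27e-07). KRT7 lay 4.29-fold higher in SUM159PT than in MDA-MB-231 (adjusted p = 3.97e-08). KRT8 of SUM159PT and MDA-MB-231, and KRT81 of the same lines, were the neighbours in the order of levels that were not told apart, as were KRT14 of these lines and KRT5 and KRT19 of SUM159PT and HS578T. Keratin mRNA, summed over the 9 keratins, came to between 33.6 and 142% of VIM TPM in the SUM159PT samples, 69.9 and 209% in MDA-MB-231 and 5.64 and 39.5% in HS578T.

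All genes but VIM lie in the 2 keratin clusters, the type II genes on chromosome 12 and the type I genes on chromosome 17, with the type I gene KRT18 beside KRT8 on chromosome 12 as the exception. On GRCh38, VIM lies at chr10:17228241-17237593. KRT80 (chr12:52168996-52192014), KRT7 (chr12:52232520-52252186), KRT81 (chr12:52285913-52291534), KRT5 (chr12:52514575-52520530), KRT8 (chr12:52897187-52949954) and KRT18 (chr12:52948871-52952906) follow each other. KRT19 (chr17:41523617-41528308), KRT14 (chr17:41582279-41586895) and KRT17 (chr17:41619442-41624842) form the other group. KRT8 runs on the minus strand and KRT18 on the plus strand, and as annotated they overlap by 1084 bases. The libraries were stranded and counted as such. The transcript starts used below are those of KRT8-218 at base 52905076, of KRT8-216 at 52949842, of KRT7-201 at 52233243 and of KRT7-212 at 52244378.

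KRT8 and KRT7 of HS578T came from other annotated transcripts than in the other lines. KRT8-218 made up 78.5 to 85.5% of KRT8 in the group means of SUM159PT and MDA-MB-231. In HS578T siNT it made up 10.2 ± 1.59% and in shNT 3.22 ± 4.20% (SD, n = 3). There KRT8-216, which starts 44766 bases upstream and inside KRT18 on the opposite strand, made up 56.7 ± 3.88% in siNT and 35.2 ± 6.57% in shNT. KRT8-214, a transcript without a coding frame that lies in that upstream part only, made up 22.0% in shNT. For KRT7, the protein-coding KRT7-201 made up 75.9 ± 2.46% in SUM159PT siNT and 72.5 ± 1.87% in MDA-MB-231 siNT, against 13.8 ± 4.24% in HS578T siNT and 1.40 ± 0.916% in shNT. KRT7-212, which starts 11135 bases downstream and has no coding frame annotated, took 48.2% and 53.4% there. The same transcript led everywhere for VIM (VIM-201, 88.8 to 89.9% of VIM in the group means) and KRT18 (KRT18-201, 85.2 to 86.1% in the NT controls).

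The partners KRT8 and KRT18 also went apart in HS578T between siRNA and shRNA samples. KRT18 was at 63.0, 97.1 and 123 CPM in siNT and at 1425, 977 and 660 CPM in shNT, and KRT8 at 222, 258 and 238 CPM against 130, 70.9 and 46.1 CPM. Each shNT sample lay above every siNT sample for KRT18 and below every siNT sample for KRT8. In the shNT against siNT comparison of HS578T 3 of 10 members passed, where 17.9% of all genes did. KRT18 rose 11.1-fold (log2 3.48, SE 0.35, adjusted p = 8.29e-05), while KRT8 fell by 1.51 (SE 0.39, adjusted p = 0.0139) and KRT19 by 3.43 (SE 0.87, adjusted p = 0.0139) on the log2 scale. With the RNA of other lines subtracted, KRT18 kept its call (log2 3.69, adjusted p = 7.91e-05) and KRT8 too (log2 -1.43, adjusted p = 0.0345), while KRT19 lost it (adjusted p = 0.465). KRT8 lost its call without shNT replicate 2 (adjusted p = 0.0582) or 3 (0.0708), and KRT19 without shNT replicate 2 (0.0540) or 3 (0.0545) or siNT replicate 3 (0.0753). The ratio of KRT18 to KRT8 TPM averaged 0.503 in HS578T siNT, 0.892 in siNRP1#3 and 1.07 in siNRP1#5, and 13.1 in shNT, 10.3 in shNRP1#3 and 19.8 in shNRP1#5. In SUM159PT its group means ran from 0.368 to 0.848 and in MDA-MB-231 from 0.766 to 0.929.

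**Figure D2:**
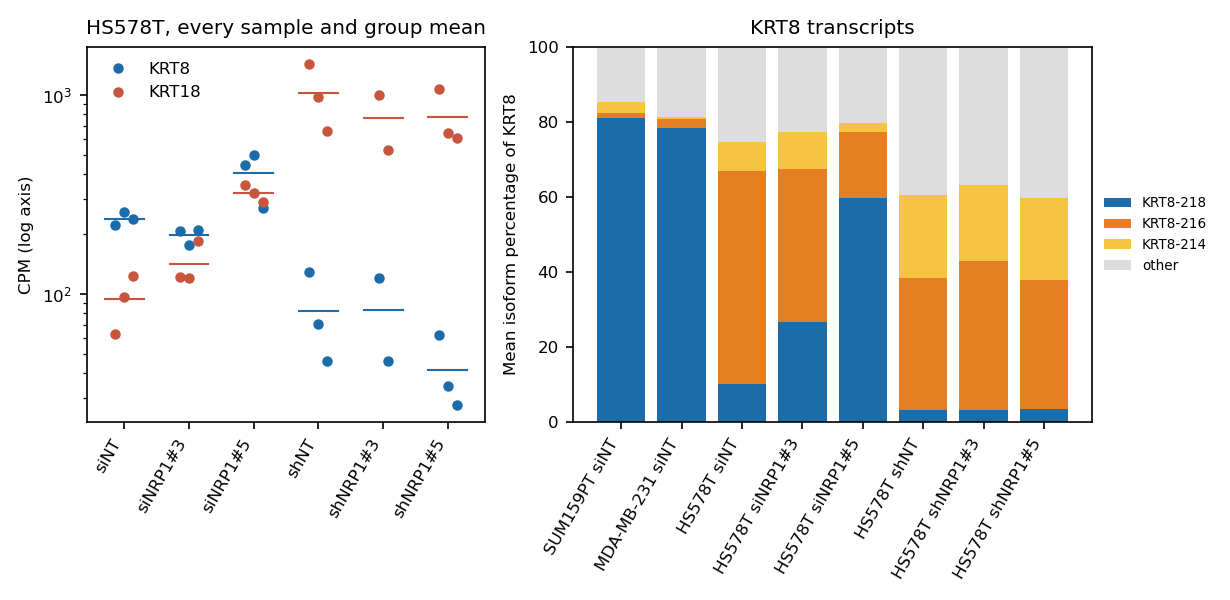
Left, KRT8 and KRT18 in every HS578T sample, in CPM on a log axis, with group means as lines. Right, mean share of KRT8 transcripts per group as a percentage of the gene. KRT18 lies below KRT8 in siNT and far above it in all shRNA groups, and KRT8-218, at about 80% in the other lines, is at 10.2% in HS578T siNT and 59.7% in siNRP1#5.

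In SUM159PT, 3 of 10 members passed between the controls (14.4% of all genes). KRT14 (log2 3.33, adjusted p = 0.0197) and VIM (log2 0.67, adjusted p = 0.0477) were higher in shNT, and KRT17 was lower (log2 -1.61, adjusted p = 0.0101). KRT14 is a low gene there, at 0.326, 1.25 and 4.50 CPM in shNT against at most 0.231 CPM in siNT. It lost its call without shNT replicate 3 (log2 1.99, adjusted p = 0.143) and without siNT replicate 1 (0.0701) or 2 (0.0529), and VIM lost its call in 10 of the refits that left out a sample of the line, with the highest adjusted p (0.216, log2 0.50) without shNT replicate 3. In MDA-MB-231 none of 9 members passed by edgeR and 1 by DESeq2, with 3 at an unadjusted p under 0.05 and 20.6% of all genes called. Each NRP1-targeting sequence was therefore set against its own NT control.

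Over the 12 comparisons of an NRP1-targeting sequence with its NT control, 33 of 116 tests of members passed, 21 higher and 12 lower. In a single comparison between 0.0356% (HS578T shNRP1#3) and 29.4% (MDA-MB-231 siNRP1#5) of all genes passed. KRT5 was too low to be tested in MDA-MB-231 and passed nowhere. In each line #3 and #5 share the same NT samples, so their values below are given side by side and not as separate evidence. In SUM159PT, KRT7 and VIM were lower with siNRP1#3 (2 of 10 members, 8.66% of all genes), and with siNRP1#5 KRT8, KRT18 and KRT81 were higher (3 of 10, 17.9%). With shNRP1#3 KRT17 was higher (1 of 10, 1.4%), and with shNRP1#5 KRT17 and KRT81 were higher and KRT14 lower (3 of 10, 5.94%). In MDA-MB-231, siNRP1#3 went with lower KRT7, KRT80, KRT81 and VIM (4 of 9, 25.7%) and siNRP1#5 with higher KRT7, KRT8, KRT17, KRT18 and KRT19 (5 of 9, 29.4%). KRT19 was lower with shNRP1#3 (1 of 9, 3.65%), and KRT7, KRT19 and KRT80 were lower with shNRP1#5 (3 of 9, 20.7%).

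In HS578T, siNRP1#3 went with higher KRT7, KRT17, KRT80 and KRT81 and lower VIM (5 of 10, 4.65% of all genes). With siNRP1#5 KRT7, KRT17, KRT18, KRT19, KRT80 and KRT81 were higher (6 of 10, 18.7%). With shNRP1#3 no member passed by edgeR or DESeq2 (0.0356% of all genes, 7 in number, and 1 member at an unadjusted p under 0.05). With shNRP1#5 none did either by both tools (0.946% of all genes, and 2 members at an unadjusted p under 0.05). The median log2 fold change of the members was 2.42 with siNRP1#5 and 1.46 with siNRP1#3 in HS578T, against 0.03 over all genes in both. With the RNA of other lines subtracted 3 of 10 members passed with siNRP1#5 (13.4% of all genes) and 3 of 10 with siNRP1#3 (3.29%), and the median was 1.42 and 1.69. In MDA-MB-231 it was 0.72 with siNRP1#5 and -0.74 with siNRP1#3, against 0.01 and -0.01 over all genes.

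**Figure D3:**
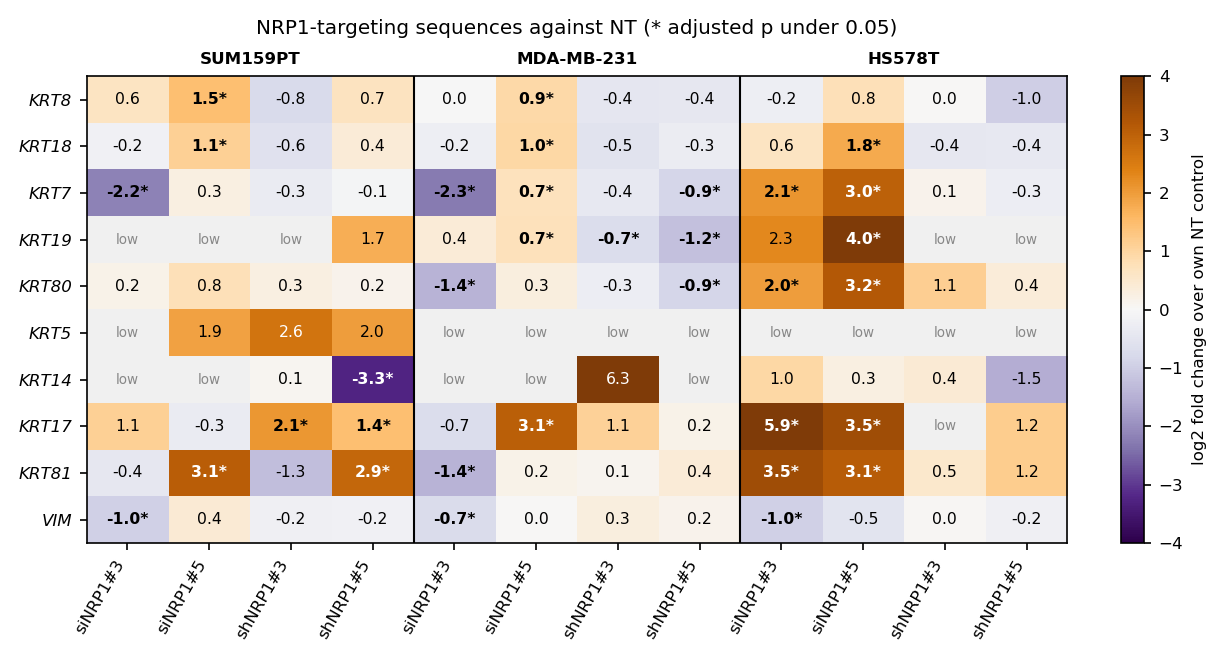
Log2 fold change of each member over the NT control of its line and delivery in the 12 comparisons. An asterisk marks an adjusted p under 0.05, colours end at 4 in either direction, and "low" marks genes not tested or under a mean of 1 CPM in both groups. Calls for KRT7 go both ways, those for KRT17 are all higher, and those for VIM are all lower and all with siNRP1#3.

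VIM fell with siNRP1#3 in all 3 lines. In SUM159PT it was at 4254, 3923 and 4253 CPM in siNT and at 2556, 2049 and 1705 CPM in siNRP1#3. In MDA-MB-231 the values were 2737, 2958 and 2681 CPM against 1674, 1533 and 1709 CPM, and in HS578T 9466, 10140 and 11230 CPM against 4732, 5207 and 5472 CPM. In each line every siNRP1#3 sample lay below every siNT sample. The log2 fold change was -0.96 in SUM159PT (SE 0.22, adjusted p = 0.0120), -0.74 in MDA-MB-231 (SE 0.13, adjusted p = 0.000382) and -0.97 in HS578T (SE 0.24, adjusted p = 0.0291). With the RNA of other lines subtracted the HS578T value was -0.93 (adjusted p = 0.0449). That call was lost without any 1 of its 6 samples: without siNRP1#3 replicate 1, 2 or 3 the adjusted p was 0.118, 0.0752 and 0.0533, and without siNT replicate 1, 2 or 3 it was 0.0625, 0.0814 and 0.0814. The SUM159PT call was lost without siNRP1#3 replicate 3 (log2 -0.83, adjusted p = 0.063). A test of equal effects in the 3 lines did not call VIM for siNRP1#3. The lowest VIM level of any sample was 1533 CPM, in MDA-MB-231 siNRP1#3 replicate 2.

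With siNRP1#5 VIM passed in no line. It was at 4923 and 5954 CPM in SUM159PT (log2 0.43, 95% interval -0.03 to 0.90) and at 2320, 3235 and 2742 CPM in MDA-MB-231 (log2 0.01, interval -0.25 to 0.26). In HS578T it was at 6875, 7948 and 6429 CPM, each below the siNT samples (log2 -0.51, interval -0.98 to -0.05, adjusted p = 0.141). None of the 6 shRNA comparisons called VIM, with log2 fold changes between -0.22 and 0.30. Set directly against siNRP1#3, siNRP1#5 had more VIM in SUM159PT (2.62-fold, adjusted p = 0.000605) and in MDA-MB-231 (1.68-fold, adjusted p = 0.000144), and not by the test in HS578T (log2 0.45, interval -0.01 to 0.92).

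**Figure D4:**
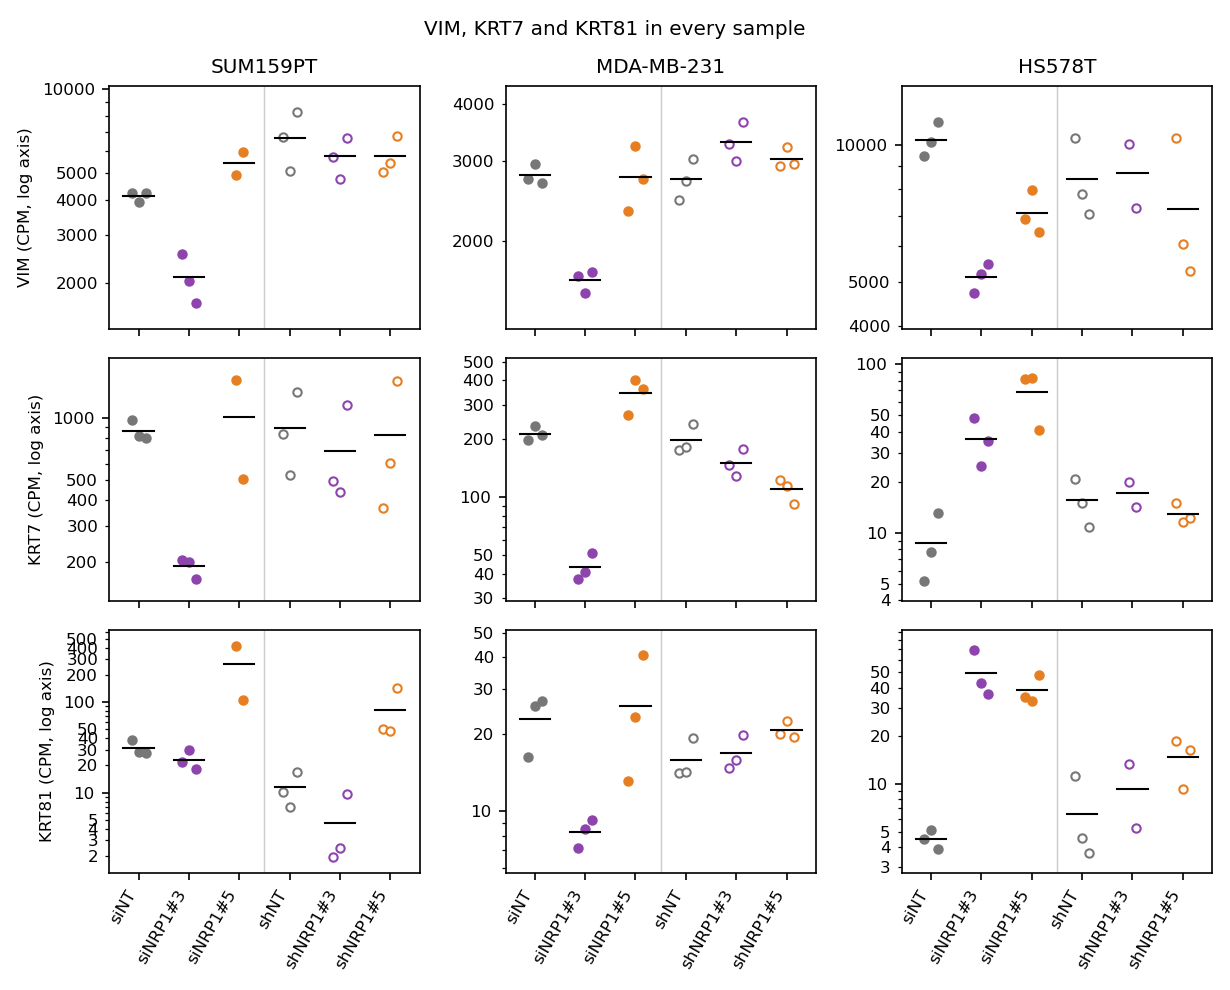
VIM, KRT7 and KRT81 in every sample of the 3 lines, in CPM on a log axis whose range differs between panels, with group means as lines. Filled points are siRNA and open points shRNA samples. VIM is lowest with siNRP1#3 in each line, KRT7 is lowest with siNRP1#3 in SUM159PT and MDA-MB-231 but not in HS578T, and KRT81 is highest with siNRP1#5 in SUM159PT.

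Among the luminal keratins, KRT7 moved in opposite directions with siNRP1#3. In SUM159PT it was at 979.6, 819 and 798 CPM in siNT and at 206, 199.5 and 166 CPM in siNRP1#3. In MDA-MB-231 it was at 197, 231 and 209.9 CPM against 37.4, 40.7 and 51.5 CPM. In both lines the groups lie far apart, and KRT7 fell by 2.16 (SE 0.52, adjusted p = 0.0170) and 2.28 (SE 0.18, adjusted p = 5.92e-08) on the log2 scale. The first call was lost without siNRP1#3 replicate 1 (adjusted p = 0.0664), 2 (0.0507) or 3 (0.0651). The share of KRT7-201 within KRT7 was lower as well, at 63.4% against 75.9% in SUM159PT and 58.8% against 72.5% in MDA-MB-231 (group means, not tested), with no overlap of the samples.

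In HS578T KRT7 was at 5.23, 7.69 and 13.2 CPM in siNT, at 48.2, 24.9 and 35.2 CPM in siNRP1#3 and at 82.3, 82.7 and 40.9 CPM in siNRP1#5. Both siNRP1 groups lay above siNT, by 2.11 (SE 0.36, adjusted p = 0.00331) and 3.02 (SE 0.38, adjusted p = 0.000150) on the log2 scale. The MDA-MB-231 share of each library would bring 4.58, 5.98 and 13.7 CPM of KRT7 in siNRP1#3 and 47.4, 36.7 and 26.5 CPM in siNRP1#5, against 1.16, 1.81 and 4.25 CPM in siNT. The SUM159PT share would add 73.7 CPM in siNRP1#5 replicate 2, so that both shares together exceed the 82.7 CPM measured there, and at most 4.30 CPM in the other siRNA libraries. With the RNA of other lines subtracted the log2 fold changes were 2.87 (adjusted p = 0.158) and 2.45 (adjusted p = 0.127), and neither passed. KRT7-201, the transcript of the other lines, made up 13.8% of KRT7 in siNT, 18.7% in siNRP1#3 and 55.5% in siNRP1#5. In MDA-MB-231 KRT7 rose with siNRP1#5 to 264, 404 and 364 CPM (log2 0.72, adjusted p = 0.00371) and fell with shNRP1#5 to between 91.9 and 122 CPM, against 175, 181 and 237 CPM in shNT (log2 -0.85, adjusted p = 0.00196).

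KRT8 and KRT18 rose together with siNRP1#5 in SUM159PT and MDA-MB-231. KRT8 was at 843, 633 and 1204 CPM in SUM159PT siNT and at 2088 and 2679 CPM in siNRP1#5, and KRT18 at 429, 441 and 509 CPM against 988 and 957 CPM. All siNRP1#5 samples lay above all siNT samples, with log2 fold changes of 1.46 (SE 0.28, adjusted p = 0.00277) and 1.12 (SE 0.20, adjusted p = 0.00203). In MDA-MB-231 KRT8 was at 968, 1158 and 859 CPM in siNT and at 1329, 2549 and 1676 CPM in siNRP1#5, and KRT18 at 675, 764 and 662 CPM against 941, 1705 and 1368 CPM. These groups do not overlap either (log2 0.92, adjusted p = 0.000838, and 0.96, adjusted p = 0.000212). With siNRP1#3 KRT8 did not pass in SUM159PT (log2 0.64, adjusted p = 0.122), where same-numbered samples deviated together and the fit with the replicate number as a block called it (log2 0.70, adjusted p = 0.0274). In HS578T KRT18 rose with siNRP1#5, from 63.0, 97.1 and 123 CPM to 354, 320 and 291 CPM (log2 1.81, SE 0.33, adjusted p = 0.00165), and still did with the RNA of other lines subtracted (log2 1.38, adjusted p = 0.00951). The subtraction used the MDA-MB-231 NT level of 804 CPM, while KRT18 averaged 1338 CPM in MDA-MB-231 siNRP1#5. RNA of cells given that siRNA would bring more than was subtracted, which was not tested. KRT8 in HS578T siNRP1#5 was at 442, 501 and 269 CPM (log2 0.78, adjusted p = 0.165), of which the MDA-MB-231 share would bring 279, 216 and 156 CPM and the SUM159PT share a further 85.1 CPM in replicate 2. KRT8-218 made up 10.2% of KRT8 in siNT and 59.7% in siNRP1#5, with no overlap of the samples (not tested).

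KRT19 moved in MDA-MB-231, the line that holds it, up with siNRP1#5 and down with the shRNAs. It was at 256, 284 and 266 CPM in siNT and at 335, 575 and 417 CPM in siNRP1#5 (log2 0.75, adjusted p = 0.00400). In shNT it was at 171, 232 and 251 CPM, against 102, 154 and 139 CPM in shNRP1#3 (log2 -0.71, adjusted p = 0.0310) and 98.9, 86.3 and 94.1 CPM in shNRP1#5 (log2 -1.22, SE 0.18, adjusted p = 0.000167). None of these 3 comparisons has overlapping samples. The shNRP1#3 call was lost without shNRP1#3 replicate 1 (adjusted p = 0.161) or 3 (0.0908) or shNT replicate 2 (0.118) or 3 (0.157). In HS578T KRT19 was at 1.09, 1.33 and 6.24 CPM in siNT and at 82.5, 24.5 and 22.1 CPM in siNRP1#5 (log2 3.99, adjusted p = 0.00297). The MDA-MB-231 share would bring 56.2, 43.6 and 31.5 CPM, more than was measured in replicates 2 and 3, and with the RNA of other lines subtracted the call was lost (adjusted p = 0.136).

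KRT80 fell beside KRT7 in MDA-MB-231. It went down with siNRP1#3 from 306, 403 and 243 CPM to 105, 121 and 116 CPM (log2 -1.45, SE 0.17, adjusted p = 8.87e-06). With shNRP1#5 it fell from 277, 284 and 313 CPM to 188, 148 and 144 CPM (log2 -0.86, SE 0.17, adjusted p = 0.00186). No sample of one group reached the other group in either comparison. In HS578T it was at 4.25, 6.30 and 12.1 CPM in siNT, 24.6, 23.7 and 37.4 CPM in siNRP1#3 (log2 1.98, adjusted p = 0.00536) and 81.2, 66.6 and 51.1 CPM in siNRP1#5 (log2 3.19, adjusted p = 0.000127). The MDA-MB-231 share would bring 6.78, 8.87 and 20.3 CPM in siNRP1#3 and 70.3, 54.4 and 39.3 CPM in siNRP1#5, where the SUM159PT share would add 15.0 CPM in replicate 2. With the RNA of other lines subtracted neither passed (log2 2.33, adjusted p = 0.189, and 1.46, adjusted p = 0.291). In SUM159PT no comparison called KRT80.

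**Figure D5:**
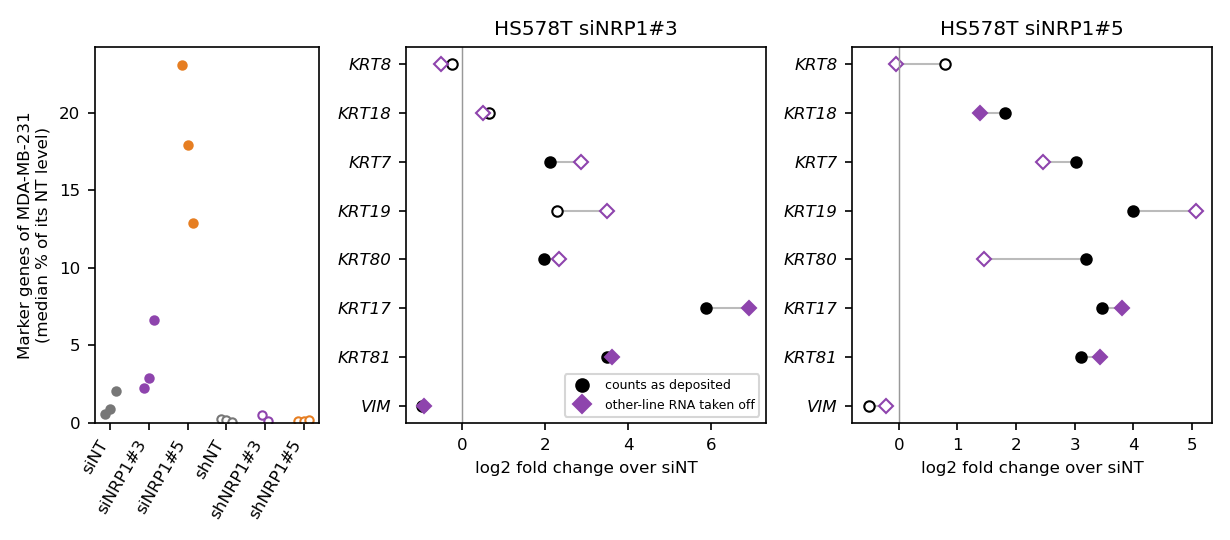
Left, the median level of 33 MDA-MB-231 marker genes in each HS578T library, as a percentage of their level in MDA-MB-231 NT controls. Middle and right, log2 fold change over siNT of 8 members with siNRP1#3 and siNRP1#5, as deposited (circles) and with the RNA of other lines subtracted (diamonds), filled where the adjusted p is under 0.05. KRT17 and KRT81 stay filled in both panels, while KRT7, KRT80 and, with siNRP1#5, KRT19 turn open.

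Of the basal keratins, KRT17 rose in each comparison with the NT control that called it. In SUM159PT it was at 20.9, 16.0 and 29.5 CPM in shNT, 52.9, 82.3 and 137 CPM in shNRP1#3 (log2 2.07, SE 0.35, adjusted p = 0.00599) and 42.5, 83.0 and 46.3 CPM in shNRP1#5 (log2 1.44, SE 0.35, adjusted p = 0.0206). All samples of both shNRP1 groups lay above shNT. The second call was lost without shNRP1#5 replicate 2 (adjusted p = 0.138) or shNT replicate 1 (0.0873) or 2 (0.0982). With siNRP1#3 KRT17 was at 158, 132 and 132 CPM against 83.9, 45.0 and 71.3 CPM in siNT, which did not pass (log2 1.11, adjusted p = 0.0554). In MDA-MB-231 it rose with siNRP1#5 from 1.24, 1.52 and 0.770 CPM to 8.75, 11.1 and 9.15 CPM (log2 3.06, SE 0.34, adjusted p = 2.01e-06). With shNRP1#3 in that line it did not pass (log2 1.08, adjusted p = 0.0800) but did with the replicate number as a block (log2 1.12, adjusted p = 0.0167), and that group holds the library with markers of the other lines. With the RNA of other lines subtracted it was at 0.84 (adjusted p = 0.259).

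In HS578T KRT17 was nearly absent in siNT, at 0.109, 0.376 and 0.328 CPM, and was at 25.5, 5.29 and 16.7 CPM in siNRP1#3 and 2.54, 3.91 and 2.66 CPM in siNRP1#5. The groups are far apart (log2 5.88, SE 0.69, adjusted p = 0.000248, and 3.47, SE 0.65, adjusted p = 0.00198). MDA-MB-231 held little KRT17 in its NT controls, and at that level its share would bring at most 0.278 CPM in any of these libraries. SUM159PT holds more, and its share would bring 3.71 of the 3.91 CPM in siNRP1#5 replicate 2, but at most 0.217 CPM in the other siRNA libraries. KRT17 averaged 9.68 CPM in MDA-MB-231 siNRP1#5, so RNA of cells given that siRNA would bring more than was subtracted, which was not tested. Both calls held with the RNA of other lines subtracted (log2 6.92, adjusted p = 0.00767, and 3.81, adjusted p = 0.0454), which left siNRP1#5 at 2.08, 0 and 2.39 CPM. Without siNRP1#5 replicate 2 and with nothing subtracted, the siNRP1#5 call held as well (KRT17, HS578T: siNRP1#5 against siNT, log2 3.29, adjusted p = 0.00792). KRT14 of HS578T varied widely within groups, for example at 156, 388 and 544 CPM in siNT and at 1523, 459.7 and 438 CPM in shNT, and no comparison within the line called it. In the other lines it did not exceed 5.41 CPM, and it had 1 call of an NRP1-targeting sequence against the NT control. That call, lower with shNRP1#5 in SUM159PT (log2 -3.28, adjusted p = 0.0298), was lost without any 1 of shNRP1#5 replicate 1 (0.0911), 2 (0.119) or 3 (0.0877) or shNT replicate 3 (0.194).

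KRT81, the hair keratin, gave large folds in SUM159PT and HS578T. In SUM159PT it was at 38.0, 28.5 and 27.3 CPM in siNT and at 418 and 106 CPM in siNRP1#5 (log2 3.09, SE 0.66, adjusted p = 0.00603). With the same sequence as shRNA it was at 50.5, 48.4 and 145 CPM against 10.3, 6.92 and 17.1 CPM in shNT (log2 2.88, SE 0.62, adjusted p = 0.0123). Neither pair of groups overlaps. The first call was lost without siNRP1#5 replicate 2 (log2 1.81, adjusted p = 0.0898), and the second without shNT replicate 1 (0.0620) or 2 (0.0623). In HS578T KRT81 was at 4.50, 5.14 and 3.91 CPM in siNT, 69.3, 43.1 and 36.4 CPM in siNRP1#3 and 34.8, 33.0 and 47.8 CPM in siNRP1#5. These groups lie apart (log2 3.49, SE 0.44, adjusted p = 0.000391, and 3.11, SE 0.44, adjusted p = 0.000337), the MDA-MB-231 share would bring at most 4.49 CPM and the SUM159PT share at most 1.78 CPM, and both calls held with the RNA of other lines subtracted (adjusted p = 0.000720 and 0.000406). Those amounts use NT levels. KRT81 averaged 21.4 CPM in the SUM159PT NT controls but 262 ± 221 CPM in SUM159PT siNRP1#5. RNA of cells given that siRNA would bring more, which was not tested. In MDA-MB-231 KRT81 fell with siNRP1#3, from 16.3, 25.7 and 27.0 CPM to 7.17, 8.47 and 9.22 CPM (log2 -1.45, SE 0.29, adjusted p = 0.00128).

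KRT81 and its near-identical neighbour KRT86 may share reads. KRT86 rose with siNRP1#5 in SUM159PT (log2 2.32, adjusted p = 0.00342), MDA-MB-231 (log2 1.48, adjusted p = 0.00235) and HS578T (log2 2.67, adjusted p = 0.00237), with shNRP1#5 in SUM159PT (log2 2.94, adjusted p = 0.000845) and with siNRP1#3 in HS578T (log2 3.24, adjusted p = 0.00228). Both HS578T calls held with the RNA of other lines subtracted (adjusted p = 0.00312 and 0.00359). How the reads were split between the 2 genes cannot be seen in the deposited values. KRT8 and KRT18 have 51 and 69 annotated processed copies, which held at most 7.26% and 0.686% of the counts of gene and copies together.

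Set directly against each other, without the NT controls, #5 had more luminal keratin than #3 in the siRNA samples of SUM159PT and MDA-MB-231. In SUM159PT 6 of 10 members passed with siRNA (29.7% of all genes), with KRT7, KRT8, KRT18, KRT81 and VIM higher and KRT17 lower with #5. In MDA-MB-231 7 of 9 passed (39% of all genes), all higher with #5 (KRT7, KRT8, KRT17, KRT18, KRT80, KRT81 and VIM). KRT7 was 5.32-fold and 7.95-fold higher with siNRP1#5 than with siNRP1#3 in these lines (adjusted p = 0.00479 and 7.39e-10). The first of these was lost without siNRP1#5 replicate 2 (log2 1.44, adjusted p = 0.0927). Also in SUM159PT, KRT8 (log2 0.81, adjusted p = 0.0353) was lost without siNRP1#3 replicate 1 (0.0633), 2 (0.0830) or 3 (0.0832) or siNRP1#5 replicate 3 (0.216), and KRT17 (log2 -1.44, adjusted p = 0.0134) without siNRP1#5 replicate 3 (0.104). In HS578T 3 of 10 passed with siRNA (18.1%). There KRT17 was lower with #5 (log2 -2.41, adjusted p = 0.00889, and 0.0494 with the RNA of other lines subtracted). KRT18 (log2 1.17, adjusted p = 0.0199) and KRT80 (log2 1.21, adjusted p = 0.0274) were higher, but with that RNA subtracted KRT18 did not pass (adjusted p = 0.0620) and KRT80 turned in sign (log2 -0.87, adjusted p = 0.538). KRT17 was lost without siNRP1#3 replicate 1 (0.0622), KRT18 without siNRP1#3 replicate 1 (0.0933) or 2 (0.0633) or siNRP1#5 replicate 1 (0.0620), and KRT80 without siNRP1#3 replicate 1 (0.113) or 2 (0.0810) or siNRP1#5 replicate 1 (0.0977) or 2 (0.0601).

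With shRNA the direct comparison called 4 of 10 members in SUM159PT (8.71% of all genes). KRT8 (2.72-fold, adjusted p = 0.00176), KRT18 (1.96-fold, adjusted p = 0.00291) and KRT81 (17.7-fold, adjusted p = 0.00104) were higher with shNRP1#5, and KRT14 was lower at under 5 CPM (adjusted p = 0.0203). KRT14 lost its call without shNRP1#3 replicate 3 (0.108) or shNRP1#5 replicate 1 (0.0643), 2 (0.0760) or 3 (0.0737). In MDA-MB-231 2 of 9 passed (14.2%), both lower with shNRP1#5. KRT80 fell by 0.61 (adjusted p = 0.0240) and lost its call without any 1 of its 6 samples but shNRP1#5 replicate 1 (adjusted p between 0.0531 and 0.107). KRT14 (adjusted p = 0.0492) rested on shNRP1#3 replicate 3, at 5.41 CPM, the library with markers of the other lines, and without it the log2 difference was -0.54 (adjusted p = 0.865). In 13 further refits that left out 1 sample of the line it missed the threshold too (adjusted p between 0.0510 and 0.149). In HS578T none of 10 passed by edgeR or DESeq2 (0.544%, with 1 at an unadjusted p under 0.05).

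The sequence #5 was used as siRNA and as shRNA, and the difference of its 2 effects was tested as an interaction. In MDA-MB-231 6 of 9 members differed (23.7% of all genes), namely KRT7, KRT8, KRT17, KRT18, KRT19 and KRT80, all with the higher fold change as siRNA. KRT19, which rose as siRNA and fell as shRNA, differed by 1.97 on the log2 scale (SE 0.26, adjusted p = 2.42e-05). In 1 model over all 52 samples only KRT17 and KRT18 of the 6 passed, and KRT7 (adjusted p = 0.0955), KRT8 (0.0587), KRT19 (0.240) and KRT80 (0.209) did not. In HS578T 3 of 10 differed (0.854%), KRT7 by 3.29, KRT18 by 2.20 and KRT80 by 2.82, but with the RNA of other lines subtracted none of the 3 passed (adjusted p = 0.440, 0.0946 and 0.775). In SUM159PT none passed by edgeR and 1 by DESeq2 (2.51%, with 3 at an unadjusted p under 0.05). There KRT81 had close effects in both forms, with a difference of 0.21 (interval -1.50 to 1.92), which is too wide to call them alike. NRP1 itself fell further as siRNA than as shRNA in SUM159PT (difference -2.01, adjusted p = 0.0315, lost in 8 refits that left out 1 sample, with adjusted p between 0.0505 and 0.0760) and MDA-MB-231 (difference -3.83, adjusted p = 8.14e-09), and the difference did not pass in HS578T (-0.57, adjusted p = 0.536).

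Whether a sequence had equal effects in the 3 lines was tested with an F test over all 52 samples. For siNRP1#3 4 of 10 members differed between lines (3.42% of all genes), KRT7, KRT17, KRT80 and KRT81, and each still did with the RNA of other lines subtracted (adjusted p between 0.000135 and 0.0314). For siNRP1#5 6 of 10 did (18.2%), KRT7, KRT17, KRT19, KRT80, KRT81 and VIM, of which KRT17 and KRT81 held with that RNA subtracted (adjusted p = 0.0133 and 0.00394). VIM was at the threshold (adjusted p = 0.0498). For shNRP1#3 none passed by edgeR and 1 by DESeq2 (0.747%, with 4 at an unadjusted p under 0.05), and for shNRP1#5 none and 2 (3.81%, with 4 at an unadjusted p under 0.05).

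As a sum, keratin mRNA stood higher against VIM with siNRP1#3 than in siNT in every line, as a description. The summed keratin TPM came to 72.3 ± 5.92% of VIM TPM in SUM159PT siNT and 129 ± 12.5% in siNRP1#3, to 104 ± 5.17% and 152 ± 6.89% in MDA-MB-231, and to 8.41 ± 2.46% and 28.0 ± 8.10% in HS578T (SD, n = 3), or 7.95 ± 2.27% and 25.8 ± 7.32% with the RNA of other lines subtracted. The keratin sum itself was 2017 ± 457 TPM and 1970 ± 207 TPM in SUM159PT and 2522 ± 223 TPM and 2153 ± 75.4 TPM in MDA-MB-231. In these lines the ratio was thus higher while the sum of the 9 member keratins was not. KRT75, which is outside that sum, averaged 77.1 ± 22.5 TPM in SUM159PT siNT and 147 ± 37.1 TPM in siNRP1#3. With siNRP1#5 the MDA-MB-231 ratio was 185 ± 23.1% with a keratin sum of 3869 ± 853 TPM. With that siRNA the ratio was also higher in SUM159PT (108 ± 27.9%, n = 2) and HS578T (23.6 ± 4.59%, or 15.6 ± 6.71% subtracted). In SUM159PT it was 52.4 ± 2.43% in shNT, 42.6 ± 9.40% in shNRP1#3 and 76.1 ± 10.3% in shNRP1#5. With both shRNAs it was lower in MDA-MB-231, from 129 ± 7.30% in shNT to 76.3 ± 8.49% and 84.2 ± 8.97%. In HS578T the ratio was 29.3 ± 9.10% in shNT, 27.6 ± 16.3% in shNRP1#3 (n = 2) and 20.7 ± 3.02% in shNRP1#5. The keratin sum of HS578T was 460 ± 121 TPM in siNT and 842.5 ± 298.8 TPM in siNRP1#3. KRT14, which no comparison within that line called, made up 235 ± 107 TPM and 497 ± 268.5 TPM of these.

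The other genes of the filament system were counted from 4 lists over the same 12 comparisons. They are to be read against the shares of all genes given above, which ran from 0.0356 to 29.4% per comparison. Of 46 other keratin genes, 7 to 14 were high enough to test in a line, and 26 of 132 tests passed, 19 higher and 7 lower. KRT71, an inner root sheath keratin, rose in SUM159PT with siNRP1#5 (log2 4.18, adjusted p = 0.00303) and shNRP1#5 (log2 3.41, adjusted p = 0.0232). It was low, with means of 0.133 TPM in siNT and 2.04 ± 2.27 TPM in siNRP1#5 (n = 2). In shNT and shNRP1#5 they were 0.0367 and 0.453 TPM. KRT34, a hair keratin, rose with siNRP1#3 in MDA-MB-231 (log2 1.50, adjusted p = 0.000420) and HS578T (log2 3.81, adjusted p = 0.000736, and 0.00104 with the RNA of other lines subtracted). KRT83 rose with siNRP1#5 in SUM159PT (log2 2.67) and with siNRP1#3 in HS578T (log2 3.70, adjusted p = 0.0176 after subtraction), but stayed under 2 TPM everywhere. KRT75 rose with siNRP1#5 in SUM159PT (log2 1.25) and HS578T (log2 4.85, not with the RNA of other lines subtracted, adjusted p = 0.236). In HS578T that was 0.08 TPM in siNT against 2.85 ± 4.55 TPM in siNRP1#5. In SUM159PT KRT75 was not low, at 77.1 ± 22.5 TPM in siNT and 137 ± 94.5 TPM in siNRP1#5 (n = 2). The same sequence as shRNA had less of it there, at 102 ± 11.3 TPM against 196 ± 30.5 TPM in shNT, which did not pass (log2 -1.05, adjusted p = 0.0712).

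Of 15 other intermediate filament genes, 26 of 120 tests passed, 10 higher and 16 lower. NES, the nestin gene of progenitor cells, rose with siNRP1#5 in SUM159PT (log2 4.47, adjusted p = 0.000155), MDA-MB-231 (log2 2.26, adjusted p = 5.68e-08) and HS578T (log2 3.14, adjusted p = 0.0125, and 0.123 with the RNA of other lines subtracted), and with shNRP1#5 in SUM159PT (log2 4.31, adjusted p = 9.72e-05). NES fell with shNRP1#3 in SUM159PT (log2 -2.32, adjusted p = 0.0425) and, in MDA-MB-231, with siNRP1#3 (log2 -0.81), shNRP1#3 (log2 -1.15) and shNRP1#5 (log2 -0.84). Its group means did not exceed 4.37 TPM in SUM159PT and 2.03 TPM in HS578T. DES, the desmin gene of muscle, rose in SUM159PT with siNRP1#5 (log2 3.59) and shNRP1#5 (log2 3.37) and in MDA-MB-231 with siNRP1#5 (log2 4.80, adjusted p = 0.000310). DES stayed low there, with group means of at most 3.87 TPM in SUM159PT and 1.36 TPM in MDA-MB-231. SYNC fell with siNRP1#5 in SUM159PT, MDA-MB-231 and HS578T, by 1.78, 1.09 and 3.38 on the log2 scale, the last also after subtraction (adjusted p = 0.000406). SYNM, which encodes synemin, a partner of vimentin, fell with siNRP1#3 by 1.60 in SUM159PT (adjusted p = 0.00123) and by 1.01 in MDA-MB-231 (adjusted p = 7.11e-05), beside VIM, with siNRP1#5 in SUM159PT (log2 -1.01) and with shNRP1#5 in MDA-MB-231 (log2 -0.48). It was called higher in HS578T siNRP1#5 (log2 1.04, adjusted p = 0.0288), but not after subtraction (log2 -0.09, adjusted p = 0.955).

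Of 19 plakin, desmosome and hemidesmosome genes, which anchor the filaments, 16 were tested in each line, and 41 of 192 tests passed, 18 higher and 23 lower. EPPK1, which encodes epiplakin, a protein that binds keratin filaments, rose in SUM159PT with siNRP1#3 (log2 4.53, adjusted p = 0.00296) and siNRP1#5 (log2 2.47, adjusted p = 0.0455), in MDA-MB-231 with siNRP1#5 (log2 3.05, adjusted p = 5.45e-05) and in HS578T with siNRP1#3 (log2 3.94, adjusted p = 0.000714, and 0.00123 with the RNA of other lines subtracted). EPPK1 was near the floor throughout, with its highest group mean at 0.723 TPM, in HS578T siNRP1#3. PPL, which encodes periplakin, rose with siNRP1#5 in MDA-MB-231 (log2 3.29) and HS578T (log2 3.03, adjusted p = 0.0313 after subtraction), and fell with siNRP1#5 in SUM159PT (log2 -1.97, adjusted p = 0.0191) and shNRP1#5 in MDA-MB-231 (log2 -2.15, adjusted p = 0.00103). EVPL and PKP2 each rose in 2 comparisons, of which that in HS578T siNRP1#5 could not be tested after subtraction because too few counts were left. Where they rose, group means reached at most 1.13 TPM for EVPL and 2.16 TPM for PKP2. PPL in HS578T siNRP1#5 was at 0.987 TPM. In MDA-MB-231 EVPL fell with siNRP1#3 (log2 -0.56), siNRP1#5 (log2 -0.94) and shNRP1#5 (log2 -0.46), and PKP2 with siNRP1#3 (log2 -0.64). In HS578T siNRP1#5 8 of 16 genes of the list were higher and none lower (18.7% of all genes called), and after subtraction 1 of 14, PPL, was (13.4%).

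Of 20 epithelial and mesenchymal transcription regulators, 35 of 184 tests passed, 17 higher and 18 lower. KLF5, a factor of epithelial cells, rose in HS578T with siNRP1#3 (log2 2.01, adjusted p = 0.00657) and siNRP1#5 (log2 2.55, adjusted p = 0.000567), also after subtraction (adjusted p = 0.0411 and 0.0146). With shNRP1#5 it rose as well (log2 1.72, adjusted p = 0.0366), but not after subtraction (adjusted p = 0.165), and in MDA-MB-231 it fell with siNRP1#3 (log2 -0.45, adjusted p = 0.00879). TP63, the master factor of basal epithelium, fell with siNRP1#5 in SUM159PT (log2 -2.74, adjusted p = 0.000737) and MDA-MB-231 (log2 -1.79, adjusted p = 0.0127) and with shNRP1#5 in MDA-MB-231 (log2 -1.65, adjusted p = 0.0331), where subtraction of other-line RNA ended both calls (adjusted p = 0.156 and 0.143). With shNRP1#3 in that line it was called higher (log2 1.62, adjusted p = 0.0445), but not after subtraction (0.811). TP63 was near the floor in MDA-MB-231, where no group mean exceeded 0.31 TPM. ELF3, an epithelial factor, fell in MDA-MB-231 with siNRP1#3 (log2 -1.20, adjusted p = 0.0322) and shNRP1#5 (log2 -2.87, adjusted p = 0.000645), and was called higher in HS578T siNRP1#5 (log2 3.24, adjusted p = 0.0304), but not after subtraction (0.371). ESRP2, an epithelial splicing factor, rose in HS578T with siNRP1#3 and siNRP1#5 (log2 1.91 and 3.80), where too few counts were left to test it after subtraction, and fell with the same siRNAs in MDA-MB-231 (log2 -0.55 and -0.85). In HS578T no group mean exceeded 0.677 TPM for ESRP2 and 0.867 TPM for ELF3.

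Across the 52 samples, with the mean of each line taken off log2 CPM, the gene most like KRT7 among 16331 genes was KRT80 (Pearson r = 0.795), and KRT7 was the gene most like KRT80. The gene most like KRT81 was KRT86 (r = 0.894), and those most like KRT8 and KRT18 were their processed copies KRT8P3 (r = 0.980) and KRT18P10 (r = 0.873). KRT19 was most like GPAT2 (r = 0.906), KRT17 like PPP1R3B (r = 0.718) and KRT14 like PARVB (r = 0.710). The partners KRT8 and KRT18 had r = -0.268 over the same samples. Only line means were taken off, so the HS578T siRNA and shRNA samples, between which the partners went apart, enter this value. In SUM159PT and MDA-MB-231 both partners rose with siNRP1#5. These correlations describe samples that share lines and treatments, and copies and KRT86 may share reads with the members. They were taken without subtraction of other-line RNA, so the HS578T siRNA libraries that carry MDA-MB-231 markers enter them as deposited. KRT19 of HS578T, for example, averaged 43.1 CPM in siNRP1#5 and 0.238 CPM in shNT. Whether the pairs would be the same after subtraction was not tested.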

How the data were processed

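The mRNA libraries (stranded, paired-end) had been trimmed with Trim Galore 0.6.5, aligned to GRCh38 with STAR 2.7.2b and quantified with RSEM 1.3.3 by the authors, who also left out 2 outlying samples. The deposited values were expected counts and TPM per gene and per transcript, and the isoform percentage of each transcript within its gene as a percent. Expected counts were rounded and tested with edgeR 4.0.16 (R 4.3.3, filterByExpr, TMM, robust quasi-likelihood fit of 6 group means per cell line, or of 18 over all 52 samples, Benjamini-Hochberg adjustment over all genes tested, threshold 0.05). Genes tested numbered 20067 in SUM159PT, 18800 in MDA-MB-231, 19661 in HS578T and 23416 over all samples. TPM and isoform percentages were described and not tested. The members and gene lists were chosen with earlier results of these data known. From each list, at most 4 genes were named, those past the threshold in the same direction by at least 1 on the log2 scale in at least 2 comparisons, largest mean change first. Copies of members and the most similar genes were named as well.

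To subtract RNA of another line, that line's mean NT level of every gene was multiplied by the median, over its marker genes, of their level in the sample relative to that mean, and taken from the counts down to 0. Same-numbered samples were taken as paired where the correlation of their deviations from the group mean was over 0.1 in all 3 pairs, which held for siNRP1#3 with siNT in SUM159PT (0.212 to 0.379), siNRP1#5 with siNT (0.347 to 0.428) and shNRP1#3 with shNT (0.100 to 0.157) in MDA-MB-231, and shNRP1#5 with shNT in HS578T (0.251 to 0.688). Alternatives were DESeq2 1.42.0, DESeq2-type size factors, no low-count filter, the replicate block, only the groups compared, 1 model over all samples, added processed copies, subtraction of other-line RNA and leaving out each sample. On data simulated for SUM159PT siNRP1#3 against siNT (19378 genes, 200 changed) the test recovered 10% of genes changed by 1 and 57.6% of those changed by 2 on the log2 scale, and 5.63% of its calls were false. Only those 200 genes differed in the simulation, while 8.66% of genes passed in the data. The adjustment depends on the share of changed genes, so recovery in the data may differ. Gene coordinates were taken from an annotation of the same build that may be older than the one the authors used.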

Additional observations from a re-analysis of the deposited data

Results flagged for a closer look

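Effects of sequence #5 differed between siRNA and shRNA. In MDA-MB-231 the difference of log2 fold changes (siRNA minus shRNA) was 1.57 for KRT7 (adjusted p = 0.000133), 1.35 for KRT8 (0.000895), 2.9 for KRT17 (0.000211), 1.26 for KRT18 (0.000597), 1.97 for KRT19 (2.42e-05) and 1.16 for KRT80 (0.00186), by edgeR with Benjamini-Hochberg adjustment. None of these 6 lost its call with 1 sample left out, but in 1 model over all 52 samples KRT7 (0.0955), KRT8 (0.0587), KRT19 (0.24) and KRT80 (0.209) did. In HS578T it was 3.29 for KRT7 (0.0073), 2.2 for KRT18 (0.03) and 2.82 for KRT80 (0.017). There KRT18 lost its call in 8 refits that left out 1 sample, which were those without shNRP1#5 replicate 2 (0.0936) or 3, shNT replicate 1 or 2, siNRP1#5 replicate 1 or 2 (0.0536) or siNT replicate 1 or 2. KRT80 lost it in 4, those without shNRP1#5 replicate 2 (0.0545), siNRP1#5 replicate 1 (0.0523) or siNT replicate 1 (0.0507) or 2 (0.0563). With other-line RNA subtracted by the wider markers, adjusted p was 0.44 for KRT7, 0.0946 for KRT18 and 0.775 for KRT80.

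Effects of a sequence differed between the cell lines in an F test of equal log2 fold changes. For siNRP1#3 the F statistic was 36.4 for KRT7 (adjusted p = 9.04e-06), 40.5 for KRT17 (5.84e-06), 21.8 for KRT80 (0.000224) and 25.6 for KRT81 (9.7e-05). For siNRP1#5 it was 13.1 for KRT7 (0.00109), 16.6 for KRT17 (0.000235), 6.15 for KRT19 (0.033), 17.8 for KRT80 (0.000145), 11.5 for KRT81 (0.00238) and 5.28 for VIM (0.0498). KRT19 lost its call without any 1 of HS578T siNRP1#5 replicate 1 (F 3.13, 0.166), HS578T siNT replicate 1 (0.0907) or 2 (0.107), MDA-MB-231 siNRP1#5 replicate 1 (0.0592) or 3 (0.0631) or MDA-MB-231 siNT replicate 2 (0.0536). With other-line RNA subtracted by the wider markers, adjusted p for siNRP1#5 was 0.281 for KRT7, 0.208 for KRT19, 0.65 for KRT80 and 0.276 for VIM, while the other 6 tests kept their calls. VIM lost its call without most single samples, with F lowest (3.04, 0.172) without SUM159PT siNRP1#5 replicate 3.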

How the results depend on the processing

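Of 33 calls of members against the NT control, 31 to 36 were made with 1 sample left out and 55 with no low-count filter, and over the other settings 25 (1 model over all samples) to 40 (only the groups compared). The other counts with 1 sample left out were 4 to 9 (all samples: 6) between the NT controls, 19 to 24 (22) for #5 against #3, 25 to 26 (25) between lines, 7 to 10 (9) for the siRNA to shRNA difference and 8 to 12 (10) for equal effects in the lines. For the lists they were 21 to 29 (26) for other keratins, 23 to 30 (26) for other filament genes, 37 to 46 (41) for plakins and desmosomes and 29 to 38 (35) for regulators. The leading transcript was the same in 29 to 30 of 30 gene and line pairs. The refits over all 52 samples kept the genes tested and the dispersion trend of the full fit, while those within a line were filtered and fitted anew. With no low-count filter the counts were 12 between the NT controls, 16 for the siRNA to shRNA difference, 23 for equal effects and 42 for other keratins. The siRNA to shRNA difference fell to 6 calls with other-line RNA subtracted and with 1 model over all samples. With other-line RNA subtracted, equal effects gave 5 calls, and 6 with the wider markers, which were added after the data had been seen.

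Directions turned for KRT80 in HS578T siNRP1#5 against siNRP1#3 (from 1.21 to -0.38, and -0.87 with the wider markers), for SYNM in HS578T siNRP1#5 (-0.184, and -0.087 with the wider markers) and for TP63, HS578T: siNRP1#5 against siNT (-6.79), all under subtraction; the cause was not tested. With the replicate block, which pairs same-numbered samples, the member counts were 38 against NT, 7 between NT controls, 23 for #5 against #3, 23 between lines, 9 and 12 for the others, and the lists gave 31, 30, 42 and 43. Of 509 results for single genes, 494 kept direction and side of the threshold under it, 12 passed only with it and 3 only without it (KRT18 and KRT80 between SUM159PT and MDA-MB-231, adjusted p = 0.0785 and 0.0549, and KRT14 between shNRP1#5 and shNRP1#3 in MDA-MB-231, 0.0551). In paired comparisons it changed no other member call than the KRT8 and KRT17 ones given above. With 3 samples against 3, an exact permutation test could not go below p = 0.1, and lowest counts of 0 for KRT5 and KRT14 in MDA-MB-231 siNT and of 3 for KRT17 in HS578T siNT limit the precision of those folds.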
